A study of Mus musculus with 8 samples.

Results

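The 23 genes described here had at least 40 reads in each of the 4 control libraries of HOXA9-immortalized granulocyte-macrophage progenitors (iGMPs) and at most 8 reads in each of the 2 libraries made after HOXA9 inactivation. They were 23 of 34199 genes in the count tables. Of the 9909 genes with at least 40 reads in all 4 control libraries, 26 met the HOXA9 OFF limit, and Thy1, Gimap5 and Rag2 were left out by name because they belong to lymphoid gene groups. The loss in HOXA9 OFF cells is therefore what chose the genes and was not tested. The CAF-1 OFF libraries took no part in the choice.

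The cells are mouse progenitors of C57Bl/6 origin, carrying HOXA9 fused to a hormone-binding domain of the estrogen receptor and a GFP reporter under the lysozyme promoter (Lys-GFP-ER-HoxA9 cells). Uninduced cells were taken at 0 h in 150 ng/ml estradiol, and IPTG control cells after 48 h in the same medium with 500 µM IPTG. CAF-1 OFF cells received the same dose for 48 h, which switched on an shRNA against Chaf1b, a subunit of CAF-1, while estradiol and active HOXA9 remained. HOXA9 OFF cells were washed and kept for 48 h without estradiol. Each of the 4 groups had 2 libraries of bulk RNA sequencing. The study describes clonal lines carrying the inducible shRNA, and its supplement mentions RNA-seq tracks from a pair of separate sub-clones. The labels do not tie a library or a replicate number to a sub-clone, and p-values measure the spread between the 2 libraries of each group.

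HOXA9 is a homeodomain transcription factor that holds myeloid progenitors in self-renewal, usually together with the cofactors PBX and MEIS. When it is removed the progenitors leave self-renewal and mature towards neutrophils. CAF-1 is the histone chaperone that loads histones H3 and H4 onto newly copied DNA. A gene that depends on HOXA9 could in principle be kept, raised or lowered when CAF-1 is lost while HOXA9 stays on, and that was the question asked of the 23 genes.

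The libraries held from 14044284 to 22423837 reads in genes. By these totals 3 reads, taken as the detection floor, were 0.134 to 0.214 CPM (counts scaled to a common library size). CPM values elsewhere use library sizes further scaled by TMM, so 3 reads do not match this floor exactly there. The floor covers counting error only, since PCR copies were not told apart. Chaf1b, the shRNA target, had 96.8 and 100.3 CPM uninduced, 95.1 and 101.7 CPM with IPTG, 18.7 and 9.72 CPM after CAF-1 suppression, and 48.3 and 41.0 CPM after HOXA9 inactivation. Hoxa9 reads, which do not show whether the fused protein is active, numbered 234 and 235 CPM uninduced and 481 and 450 CPM after HOXA9 inactivation. In the study's supplement, RNA-seq tracks lacked reads over both untranslated ends of Hoxa9 in all conditions. It takes this to mean that the fused transgene was expressed and the endogenous gene was not. All 10 granulocyte-macrophage progenitor markers examined were above 3 reads in every group. Their sum was 10832 to 14920 CPM over the 4 control libraries and 16404 to 16497 CPM after CAF-1 suppression. After HOXA9 inactivation it was 6487 to 8858 CPM. These markers did not move together. Against uninduced cells, Kit, Cd34 and Ctsg were called lower in HOXA9 OFF cells, and Ms4a3, Irf8 and Csf3r higher. In CAF-1 OFF cells only Elane and Csf3r were called, both higher. Mpo, the largest part of the sums, was called in neither. The summed level of 8 neutrophil markers was 94.9 to 100.1 CPM over the 4 control libraries, 1269 to 2201 CPM after CAF-1 suppression and 6296 to 9279 CPM after HOXA9 inactivation. Mmp8 alone gave 1091 and 1937 CPM of the sums after CAF-1 suppression, where Ltf, Camp and Mmp9 were not called against uninduced cells and the other 5 were called higher. Megakaryocyte (5 genes), mast cell and basophil (4) and erythroid (5) markers summed to 23.5 to 29.4, 175 to 255 and 4.66 to 7.61 CPM over the control libraries and to 192 to 216, 740 to 1115 and 14.7 to 15.3 CPM after CAF-1 suppression. After HOXA9 inactivation these lists summed to 123 to 127, 349 to 362 and 12.7 to 22.8 CPM, also above the controls. Macrophage markers (5) went from 26.9 to 54.5 CPM over the controls to 48.95 to 77.0 CPM after CAF-1 suppression and 1008 to 1527 CPM after HOXA9 inactivation. B cell markers (9) summed to 254 to 470 CPM over the controls, 334 to 468 CPM after CAF-1 suppression and 61.9 to 74.6 CPM after HOXA9 inactivation, T cell markers (6) to at most 6.59 CPM in any library, 3 dendritic cell markers to at most 26.4 CPM and 3 neuron markers to at most 0.474 CPM. The part of these shifts in the results below was not tested. The share of reads outside genes was 14.6% in IPTG control replicate 1 and 5.30% to 7.79% in the other 7 libraries.

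Of the 23 genes, 22 are annotated as protein-coding, and Gm16341 is a processed transcript without a protein. They fall into 5 signalling genes, 3 transporters or channels, 5 genes of myosin, troponin and actin, 6 genes of surface proteins or their sugar chains, and 4 others. They lie on 10 chromosomes, with 5 on chromosome 1. Grrp1 and Slc30a2 on chromosome 4, which are 89.1 kb apart, are the one pair within 100 kb of each other.

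Promoters were looked up in RefSeq (GRCm38.p6), where 18 of the 23 genes had 23 annotated promoters, each a window from 250 bases before to 50 bases after the start. The 250 bases before the start are shown for Slc22a3, the gene with the most reads, and for Tnni1, Gpr12 and Inhbb, which differed in CAF-1 OFF cells. Capitals mark matches to TGTGGT (the RUNX motif, in Tnni1), TTGCNNAA (the CEBP motif, in Gpr12, read on the opposite strand) and TGACAG (the MEIS motif, in Slc22a3, opposite strand), and the Inhbb stretch held none of the motifs searched. The stretches are chr17:12507705-12507954 (minus strand) for Slc22a3, chr1:135799171-135799420 (plus) for Tnni1, chr5:146585240-146585489 (minus) for Gpr12 and chr1:119422249-119422498 (minus) for Inhbb.
Slc22a3: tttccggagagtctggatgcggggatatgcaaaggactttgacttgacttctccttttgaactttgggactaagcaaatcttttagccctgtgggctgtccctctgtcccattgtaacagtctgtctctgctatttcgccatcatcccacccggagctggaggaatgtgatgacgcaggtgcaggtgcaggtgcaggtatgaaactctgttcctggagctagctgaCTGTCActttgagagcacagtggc
Tnni1: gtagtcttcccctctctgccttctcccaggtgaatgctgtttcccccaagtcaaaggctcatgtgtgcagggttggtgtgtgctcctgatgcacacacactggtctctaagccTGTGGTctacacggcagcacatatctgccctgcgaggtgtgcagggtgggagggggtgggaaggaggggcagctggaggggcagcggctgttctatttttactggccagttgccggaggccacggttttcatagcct
Gpr12: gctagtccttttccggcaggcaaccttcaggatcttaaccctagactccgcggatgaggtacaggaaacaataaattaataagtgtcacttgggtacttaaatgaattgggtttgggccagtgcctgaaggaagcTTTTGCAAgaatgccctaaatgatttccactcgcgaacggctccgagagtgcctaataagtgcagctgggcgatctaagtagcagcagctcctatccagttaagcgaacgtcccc
Inhbb: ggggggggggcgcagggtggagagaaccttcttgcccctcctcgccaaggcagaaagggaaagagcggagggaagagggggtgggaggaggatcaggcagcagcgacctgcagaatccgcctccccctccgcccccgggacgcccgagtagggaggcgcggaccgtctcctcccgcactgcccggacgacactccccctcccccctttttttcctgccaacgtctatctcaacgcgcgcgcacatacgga

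Motifs were then counted in the whole windows. On either strand, the HOX-PBX letters TGATTTAT were in 0 of the 23 promoters and in 0.977% of all 32851 RefSeq promoters. The HOX letters TTTATGG were in 1 promoter, an internal one of Limch1, against 2.75% of all promoters. MEIS letters TGACAG were in 6 promoters, of Grrp1, Limch1 (both of its internal promoters), Myh7b, Scrn1 and Slc22a3, against 19.2%. RUNX letters TGTGGT were also in 6, of 8430408G22Rik, Gm16341, Gpr12, Slc30a2 and Tnni1, which has overlapping promoters, against 16.8%. CEBP letters TTGCNNAA were in both Gpr12 promoters against 10.8%, GATA letters AGATAA in 2 against 11.2%, TATAAA in 1 against 13.6%, and the ETS letters CCGGAAGT in 0 against 3.89%. The observed CpG count was at least 0.6 of that expected from base composition in 11 of the 23 promoters, among them those of Fzd9, Inhbb and Rtn4rl2, and in 35.8% of all promoters. A match describes the letters only, and HOXA9 sites far from the start were not examined.

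**Figure D1:**
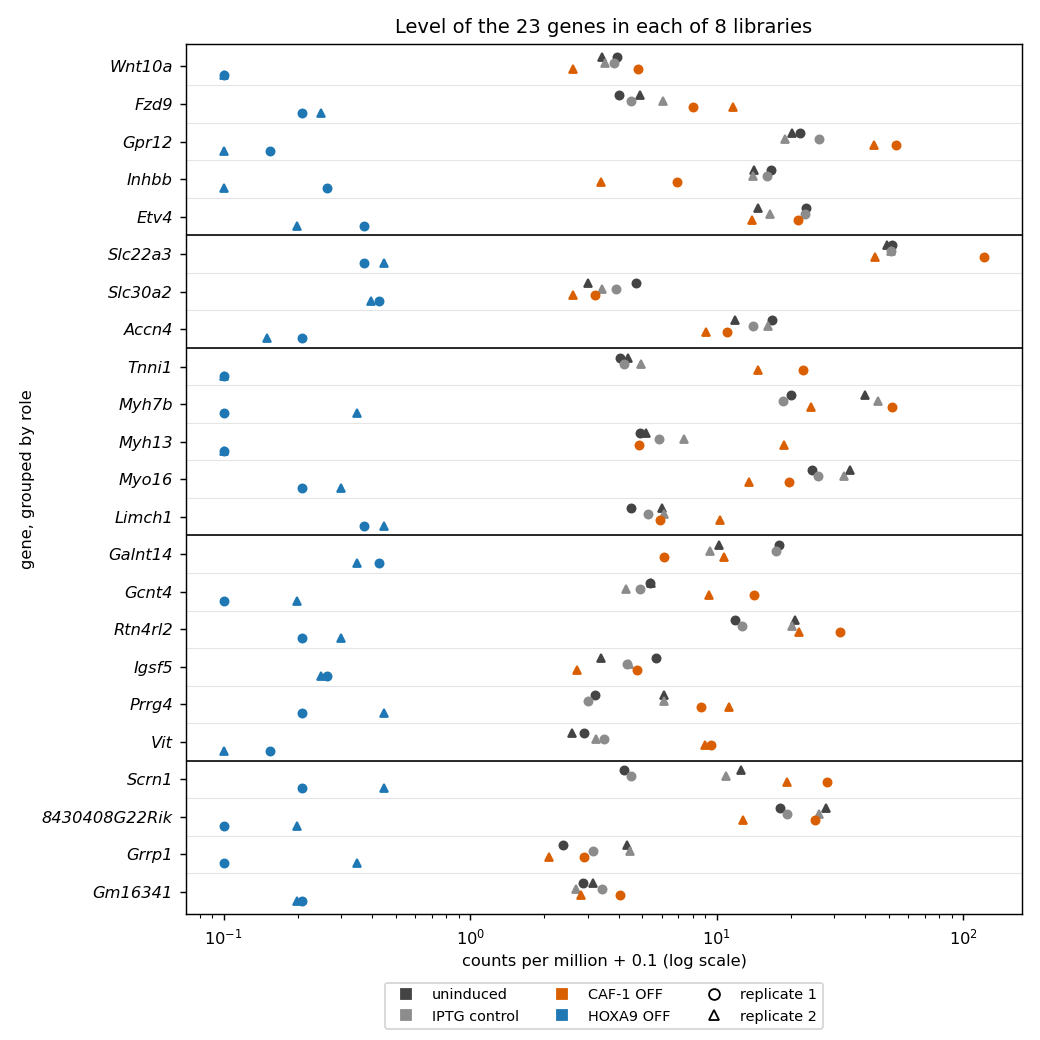
Level of each of the 23 genes (rows, grouped by role) in each library, as CPM plus 0.1 on a log axis. HOXA9 OFF libraries (blue) lie left of all others by the choice of the genes; CAF-1 OFF libraries (orange) lie among or beside the uninduced (dark grey) and IPTG control libraries (light grey). Circles and triangles are replicates 1 and 2.

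After CAF-1 suppression the genes were kept. In both CAF-1 OFF libraries 22 of the 23 had at least 40 reads, and the exception, Grrp1, had 53 and 38. None fell to 8 reads or fewer. Over all 9909 genes with at least 40 reads in the 4 control libraries, 99.5% also had at least 40 in both CAF-1 OFF libraries. Being kept was thus near the background. HOXA9 OFF counts were 0 to 7, with 12 genes at or below 3 reads in both HOXA9 OFF libraries and Myh13, Tnni1 and Wnt10a at 0 in both. In bulk RNA, fewer cells expressing a gene and less RNA per cell cannot be told apart.

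In CAF-1 OFF against uninduced cells, 4 of the 23 were called higher (Tnni1, Vit, Gpr12 and Fzd9), 1 was called lower (Inhbb) and 18 were not called, where a call is a false discovery rate (FDR) under 0.05 in edgeR's quasi-likelihood test over 13080 genes with at least a 1.5-fold difference. Of all genes tested, 10.5% were called higher and 3.5% lower, so with 23 genes these counts do not set the group apart. The median log2 fold change of the 23 was 0.34, against 0.01 over all genes, and 14 were above 0. Against IPTG control cells, which share the 48 h of IPTG, 4 were again called higher (Tnni1, Vit, Gpr12 and Gcnt4) and Inhbb lower, with 9.56% and 3.2% of all genes called. Both comparisons use the same CAF-1 OFF libraries. Counted by library, both CAF-1 OFF values were above all 4 control values in 8 genes, below all 4 in 3 (Inhbb, Myo16 and Accn4) and overlapped them in 12. Over all genes tested those shares were 30.8%, 28.2% and 41.0%.

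The counts of calls rest on few libraries. Against uninduced cells they were 0 without uninduced replicate 1, 1 without uninduced replicate 2, 2 without CAF-1 OFF replicate 2 and 3 without either IPTG control library, which enters through the shared spread. Against IPTG control cells they were 0 without either IPTG control library, 2 without either CAF-1 OFF library and 3 without either uninduced library.

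**Figure D2:**
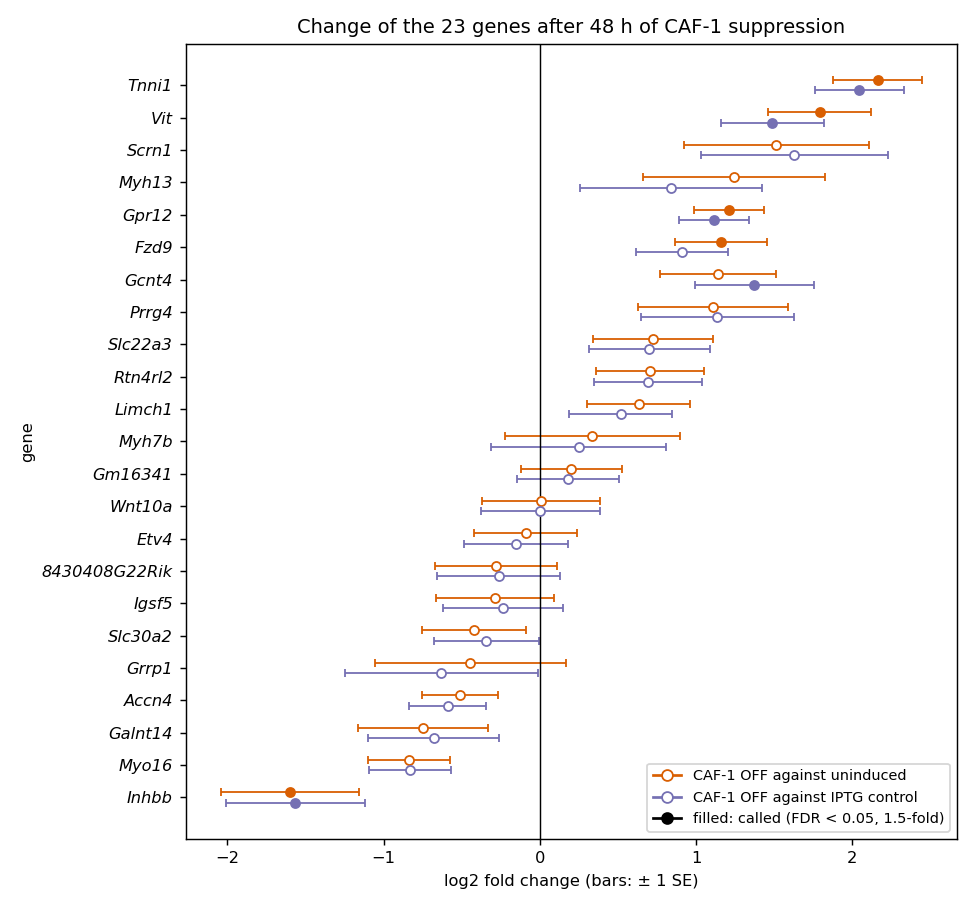
Log2 fold change of each gene in CAF-1 OFF cells against uninduced (orange) and IPTG control cells (purple), with 1 standard error (SE) to each side; filled points were called. Values ran from 2.16 for Tnni1 to -1.60 for Inhbb against uninduced cells, and 18 points in each comparison were not called.

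IPTG control cells, taken at 48 h with IPTG, gave no call among the 23 genes against uninduced cells, taken at 0 h without it. The comparison does not separate IPTG from time in culture, or from sub-clone, which the labels do not give. Both groups took part in the choice of the genes through the same lower limit on reads. A gene below that limit in any library of either group could not be among the 23. In IPTG control against uninduced cells edgeR called 0 of the 23 and 0% of all genes, and DESeq2 called 0 of the 23 and 4 of all genes. At an unadjusted p under 0.05 there were 0 of the 23 and 100 of all genes, which is 0.765%. The log2 fold changes ran from -0.23 (Gcnt4) to 0.40 (Myh13).

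Among the 5 signalling genes, 2 receptors were called higher against uninduced cells, a secreted factor was called lower, and 2 genes were not called. Gpr12 encodes an orphan G protein-coupled receptor (mm9 chromosome 5, 147393727 to 147396815, minus strand). It was at 21.6 and 20.1 CPM in uninduced, 26.0 and 18.8 CPM in IPTG control, and 53.4 and 43.4 CPM after CAF-1 suppression, with 1 and 0 reads in HOXA9 OFF cells. Both CAF-1 OFF libraries exceeded every control library, a 2.32-fold rise over uninduced cells (log2 fold change 1.21 ± 0.22 SE, n = 2 against 2, edgeR FDR 0.013). Against IPTG control cells the log2 fold change was 1.11 ± 0.22 (edgeR FDR 0.0183). Leaving out any 1 uninduced or CAF-1 OFF library took its edgeR FDR against uninduced cells to between 0.0683 and 0.0876.

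Fzd9, a Frizzled receptor for Wnt ligands (chromosome 5, 135724808 to 135727100, minus strand), was at 3.92 and 4.79 CPM in uninduced, 4.38 and 5.95 CPM in IPTG control, and 7.95 and 11.5 CPM after CAF-1 suppression, with 2 and 3 reads in HOXA9 OFF cells. Its rise over uninduced cells was 2.23-fold (log2 1.16 ± 0.29, edgeR FDR 0.0316). Against IPTG control cells it was 0.91 ± 0.29 and was not called (edgeR FDR 0.0691), and whether these differences differ was not tested. Its call against uninduced cells was lost in 5 of the 8 fits that leave out 1 library, with edgeR FDR values up to 0.215 without CAF-1 OFF replicate 2; the others were without either uninduced or either IPTG control library. Wnt10a, a Wnt ligand, was at 3.83 and 3.34 CPM in uninduced and 4.68 and 2.51 CPM after CAF-1 suppression, so the CAF-1 OFF libraries lay on both sides of the uninduced ones (log2 0.01 ± 0.38).

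Inhbb, the beta B subunit shared by activin B and inhibin B (chromosome 1, 121312042 to 121318825, minus strand), was the one gene called lower. It was at 16.6 and 14.0 CPM in uninduced, 16.0 and 13.9 CPM in IPTG control, and 6.79 and 3.29 CPM after CAF-1 suppression, with 3 and 0 reads in HOXA9 OFF cells. Both CAF-1 OFF values were below all control values and far above the HOXA9 OFF reads. The fall was 3.03-fold against uninduced cells (log2 -1.60 ± 0.44, edgeR FDR 0.0408) and 2.96-fold against IPTG control cells (edgeR FDR 0.0476). The call against uninduced cells was lost without either uninduced library, either IPTG control library or CAF-1 OFF replicate 2, where the edgeR FDR was 0.233.

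Etv4, an ETS transcription factor of the PEA3 group, differed more between same-group libraries than between the groups other than HOXA9 OFF. It was at 22.8 and 14.6 CPM in uninduced, 22.8 and 16.3 CPM in IPTG control, and 21.4 and 13.8 CPM after CAF-1 suppression, with 5 and 2 reads in HOXA9 OFF cells. Replicate 1 was the higher library in each of these 3 groups (CAF-1 OFF against uninduced: log2 -0.09 ± 0.33).

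The transporters and channels gave 0 calls of 3 in either comparison. Slc22a3, the organic cation transporter OCT3 (chromosome 17, 12612838 to 12700570, minus strand), had the most reads of the 23 genes in control cells. It was at 51.3 and 48.9 CPM in uninduced, 51.0 and 50.9 CPM in IPTG control, and 122 and 43.8 CPM after CAF-1 suppression, with 5 and 7 reads in HOXA9 OFF cells. CAF-1 OFF replicate 1 was above every control library and replicate 2 below every one. Its log2 fold change over uninduced cells was 0.73 ± 0.39 (edgeR FDR 0.215), -0.22 without CAF-1 OFF replicate 1 and 1.28 without replicate 2, where it was called (edgeR FDR 0.0137).

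Accn4, of the acid-sensing ion channel family, was at 16.7 and 11.8 CPM in uninduced, 14.0 and 16.0 CPM in IPTG control, and 10.9 and 8.99 CPM after CAF-1 suppression, with 2 and 1 reads in HOXA9 OFF cells. Both CAF-1 OFF libraries were below all 4 control libraries, and the difference did not pass (log2 -0.51 ± 0.25, edgeR FDR 0.174). Slc30a2, the zinc transporter ZnT2, was lower in level, at 4.63 and 2.91 CPM in uninduced and 3.11 and 2.51 CPM after CAF-1 suppression, which overlapped.

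Of the 5 genes of myosin, troponin and actin, 1 was called higher and 4 were not called. Tnni1, troponin I of slow skeletal muscle (chromosome 1, 137679642 to 137707566, plus strand), had the highest log2 fold change of the 23 genes. It was at 3.96 and 4.28 CPM in uninduced, 4.10 and 4.85 CPM in IPTG control, and 22.3 and 14.6 CPM after CAF-1 suppression, with 0 reads in both HOXA9 OFF libraries. The CAF-1 OFF libraries stood well clear of every control library, 4.48-fold over uninduced cells (log2 2.16 ± 0.28, edgeR FDR 0.00689) and 4.12-fold over IPTG control cells (log2 2.04 ± 0.29, edgeR FDR 0.00951). Its call against uninduced cells held in 15 of 16 alternative fits and was lost without uninduced replicate 1 (edgeR FDR 0.0653).

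None of the 3 myosins was called. Myh7b, a myosin heavy chain of slow muscle and heart, was at 19.9 and 39.96 CPM in uninduced, 18.5 and 45.0 CPM in IPTG control, and 51.5 and 24.2 CPM after CAF-1 suppression, with 0 and 5 reads in HOXA9 OFF cells. Replicate 2 was the higher library in both control groups and the lower one in CAF-1 OFF cells, and the groups overlapped (log2 0.34 ± 0.56). Myo16, an unconventional myosin, was at 24.2 and 34.7 CPM in uninduced, 25.6 and 32.9 CPM in IPTG control, and 19.5 and 13.4 CPM after CAF-1 suppression, with 2 and 4 reads in HOXA9 OFF cells. Both CAF-1 OFF libraries were below all controls, yet the difference missed the threshold (log2 -0.84 ± 0.26, edgeR FDR 0.0575) and passed it in 6 of 16 alternative fits. Myh13, a heavy chain of eye and larynx muscles, had 90 and 356 reads in the CAF-1 OFF libraries, so its log2 fold change of 1.24 ± 0.58 came from replicate 2 and was -0.06 without it. Limch1, which binds actin and nonmuscle myosin, overlapped the controls (log2 0.63 ± 0.33).

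Of 6 muscle markers, Acta1, Myog, Myh1 and Myh2 had at most 3 reads in every library and Actn2 had at most 3 in each control library, so the sum of 30.6 to 54.0 CPM over control libraries, 36.6 to 37.0 CPM in CAF-1 OFF and 17.4 to 18.3 CPM in HOXA9 OFF cells came mostly from the remaining one, Ckm. Of the 50-base windows of Myh13, 91.6% are unique, and the rest are shared with Myh1, Myh2, Myh3, Myh4 or Myh8, and reads that fit several places were not counted.

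**Figure D3:**
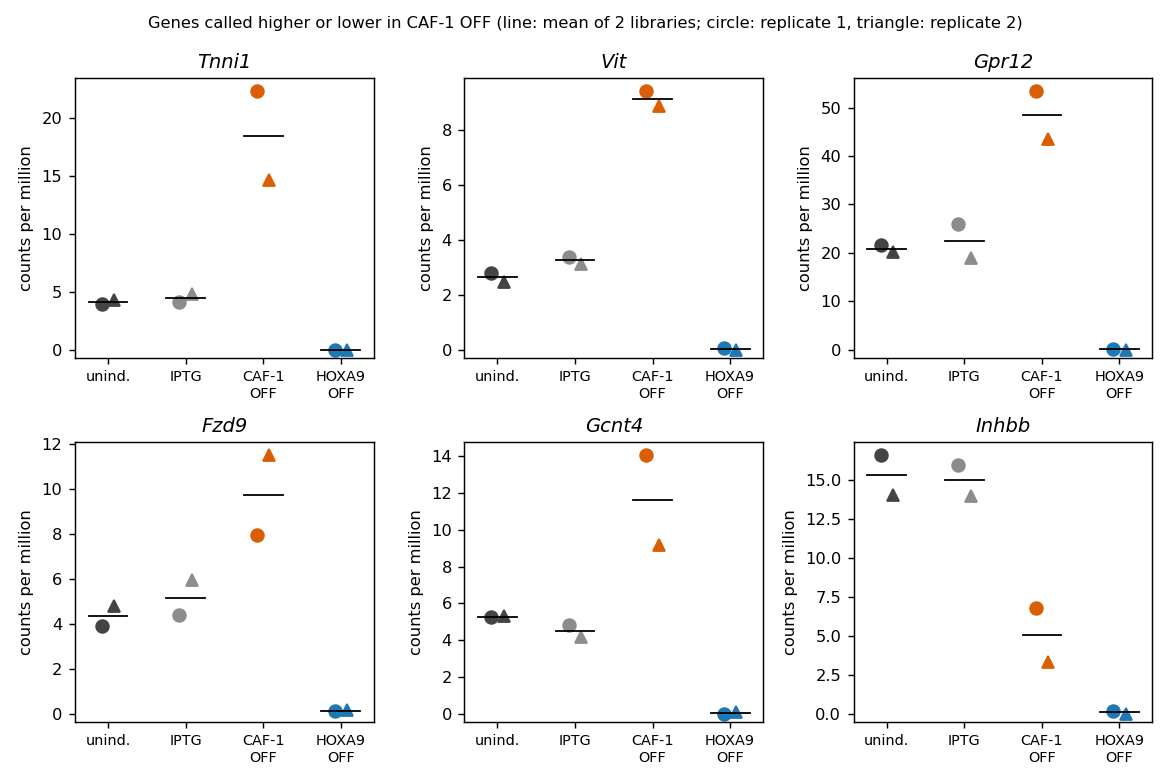
CPM in each library of the 6 genes called in CAF-1 OFF cells against uninduced or IPTG control cells; circles and triangles are replicates 1 and 2, lines the mean of 2 libraries. Tnni1, Vit, Gpr12, Fzd9 and Gcnt4 lie above every control library in CAF-1 OFF cells and Inhbb below, while HOXA9 OFF libraries are at or near 0.

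Of the 6 genes of surface or extracellular proteins and their sugar chains, Vit and Gcnt4 were called higher in at least 1 comparison. Vit encodes vitrin, an extracellular matrix protein (chromosome 17, 78907480 to 79026737, plus strand). It was at 2.80 and 2.48 CPM in uninduced, 3.39 and 3.13 CPM in IPTG control, and 9.42 and 8.89 CPM after CAF-1 suppression, with 1 and 0 reads in HOXA9 OFF cells. The CAF-1 OFF libraries differed little from each other and exceeded all controls, 3.46-fold over uninduced cells (log2 1.79 ± 0.33, edgeR FDR 0.013) and 2.81-fold over IPTG control cells (edgeR FDR 0.0235). Without any 1 uninduced or CAF-1 OFF library its edgeR FDR against uninduced cells was 0.0571 to 0.0921.

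Gcnt4, an enzyme that branches O-linked sugar chains (chromosome 13, 97694644 to 97720867, plus strand), was at 5.25 and 5.30 CPM in uninduced, 4.80 and 4.17 CPM in IPTG control, and 14.1 and 9.20 CPM after CAF-1 suppression, with 0 and 2 reads in HOXA9 OFF cells. It was called against IPTG control cells (2.59-fold, log2 1.37 ± 0.38, edgeR FDR 0.0438) and not against uninduced cells (log2 1.14 ± 0.37, edgeR FDR 0.0661), where 6 of 16 alternative fits called it. Galnt14, which starts O-linked chains, lay lower in CAF-1 OFF replicate 1 than in any control library and within the controls in replicate 2 (log2 -0.75 ± 0.42).

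Rtn4rl2, a Nogo receptor relative of neurons, was at 11.8 and 20.7 CPM in uninduced, 12.6 and 20.2 CPM in IPTG control, and 31.5 and 21.5 CPM after CAF-1 suppression, with 2 and 4 reads in HOXA9 OFF cells. CAF-1 OFF replicate 2 was just above the highest control library, and the difference was not called (log2 0.71 ± 0.35, edgeR FDR 0.18). Prrg4, a membrane protein with a vitamin K-dependent Gla domain, was above all controls at 8.53 and 11.1 CPM after CAF-1 suppression, and its uninduced libraries were 3.12 and 5.99 CPM (log2 1.11 ± 0.48, edgeR FDR 0.14). Igsf5, a junctional adhesion protein, overlapped the controls (log2 -0.29 ± 0.38).

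None of the 4 remaining genes was called. 8430408G22Rik (Depp1; chromosome 6, 116600702 to 116602865, plus strand) had the highest level per length. It was at 18.0 and 27.6 CPM in uninduced, 19.1 and 25.9 CPM in IPTG control, and 24.9 and 12.7 CPM after CAF-1 suppression, with 0 and 2 reads in HOXA9 OFF cells. CAF-1 OFF libraries fell within and below the controls (log2 -0.28 ± 0.39). Scrn1, secernin 1, was at 4.09 and 12.4 CPM in uninduced, 4.38 and 10.8 CPM in IPTG control, and 28.0 and 19.2 CPM after CAF-1 suppression. Both CAF-1 OFF libraries were above all controls, but the log2 fold change of 1.51 ± 0.59 was not called (edgeR FDR 0.108), and it was called by DESeq2 (adjusted p = 0.0311). Grrp1 and the transcript Gm16341 overlapped the controls, at log2 -0.45 ± 0.61 and 0.20 ± 0.32. Gm16341 was at 2.76 and 3.04 CPM in uninduced, 3.32 and 2.58 CPM in IPTG control, and 3.95 and 2.72 CPM after CAF-1 suppression, and it overlaps Armc9 on the other strand.

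Compared per length, as CPM per kilobase of exon (RPKM), most of the 23 genes lay below the median gene. The uninduced mean ran from 0.696 RPKM for Limch1 to 17.3 RPKM for 8430408G22Rik, with a median of 2.55 RPKM against 7.26 RPKM over all genes tested. The order from the top was 8430408G22Rik (17.3), Slc22a3 (14.3), Rtn4rl2 (10.8), Gpr12 (8.46) and Gm16341 (7.69 RPKM), followed by Etv4, Accn4, Myh7b, Myo16 and Inhbb. In CAF-1 OFF cells the order changed, with Slc22a3 (23.7), Gpr12 (19.6), Rtn4rl2 (17.6), 8430408G22Rik (14.3) and Tnni1 (10.8 RPKM) at the top and Inhbb at 1.18 RPKM, in place 21 of 23. The first place of Slc22a3 rests on CAF-1 OFF replicate 1, at 122 CPM against 43.8 CPM in replicate 2, which was below every control library.

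Several genes lay close to the limits. Inside the control limit were Prrg4, with 41 reads in its lowest control library, Gm16341 with 42 and Grrp1 with 43, and inside the HOXA9 OFF limit were Limch1, Prrg4, Scrn1 and Slc22a3 with 7 reads in their higher HOXA9 OFF library. Outside the control limit were Aqp1, Btnl2 and Tert, at 33, 31 and 31 reads in their lowest control library. Outside the HOXA9 OFF limit were Acer2 and Armcx1 with 9 reads and Mei4 with 10.

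In 19 of the 23 genes the higher of the 2 replicates was the same number in uninduced and in IPTG control cells, against 61.3% of all genes tested. Between uninduced and CAF-1 OFF cells it was 13 of 23. Scrn1 showed the widest case, replicate 2 being 1.60 higher than replicate 1 in uninduced cells and 1.30 higher in IPTG control cells on the log2 scale, but 0.54 lower in CAF-1 OFF cells (log2 -0.54). Myh7b likewise had 1.00 and 1.28 in the control groups and -1.09 in CAF-1 OFF cells. Replicates were more than 1.5-fold apart in 10 genes in uninduced, 5 in IPTG control and 12 in CAF-1 OFF cells, against 14.95%, 15.2% and 13.6% of all genes tested, which have a higher median level. The labels do not say what libraries with the same number share.

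**Figure D4:**
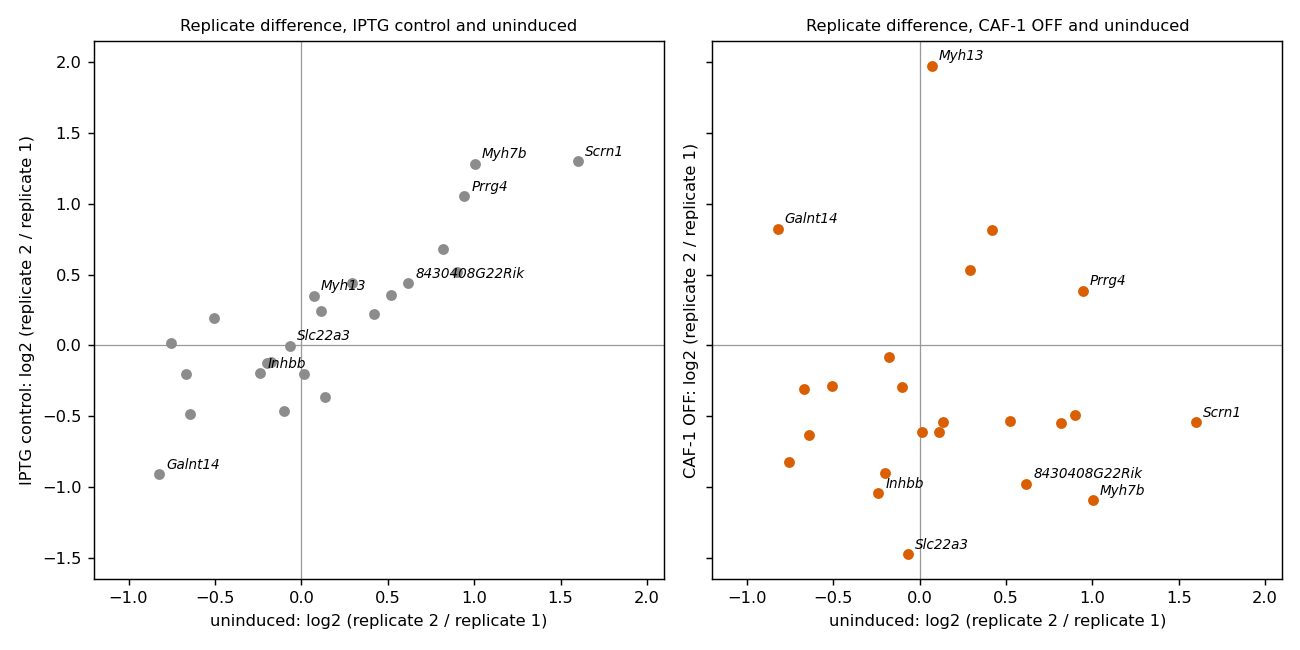
Log2 ratio of replicate 2 to replicate 1 for each of the 23 genes, uninduced cells on the horizontal axis and IPTG control (left) or CAF-1 OFF cells (right) on the vertical axis. On the left 19 of 23 points share their sign on both axes; on the right 13 do, with Scrn1 and Myh7b below 0 and Myh13 highest at 1.97.

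Genes next to the 23 did not move in 1 direction. Within 100 kb lay 127 other genes, of which 50 passed the filter on low counts. In HOXA9 OFF against uninduced cells 16 of these 50 were called lower (32.0%), 11 higher and 23 were not called. Over all genes tested 22.1% were called lower and 25.2% higher, and the median log2 fold change was 0.11 in the neighbours and 0.01 over all genes. Scaling by library size alone moved the median over all genes to -0.18.

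Some neighbours fell and others rose. Beside Tnni1, Tnnt2, the cardiac troponin T gene 29.9 kb away, was lower in HOXA9 OFF cells (log2 -3.38 ± 0.41) and Phlda3 likewise (-2.82 ± 0.38), while neither was called in CAF-1 OFF cells, where Tnni1 rose. Beside Gm16341, Armc9 (-1.93 ± 0.17), B3gnt7 (-3.26 ± 0.39) and Ncl (-1.63 ± 0.11) were lower, all with an edgeR FDR under 0.05, and Armc9 was called higher in CAF-1 OFF cells (0.66 ± 0.16, edgeR FDR 0.0251). Extl1, 1.89 kb from Slc30a2, was lower too (-2.85 ± 0.86). In contrast Itgb2l, which overlaps Igsf5 on the other strand, was higher in HOXA9 OFF (7.84 ± 0.27) and in CAF-1 OFF cells (3.80 ± 0.26), and Gas7, 83.8 kb from Myh13, was higher in both (3.59 ± 0.28 and 1.55 ± 0.26). Wnt6, 6.20 kb from Wnt10a, was not called in either. In CAF-1 OFF against uninduced cells 8 of the 50 neighbours were called higher (16.0%) and 3 lower (6.0%), against 10.5% and 3.5% of all genes tested. Whether counting used the strand is not stated. How reads were assigned or set aside is not known where Igsf5 and Itgb2l, 8430408G22Rik and Rassf4, Gm16341 and Armc9, or Myh7b and Trpc4ap overlap.

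**Figure D5:**
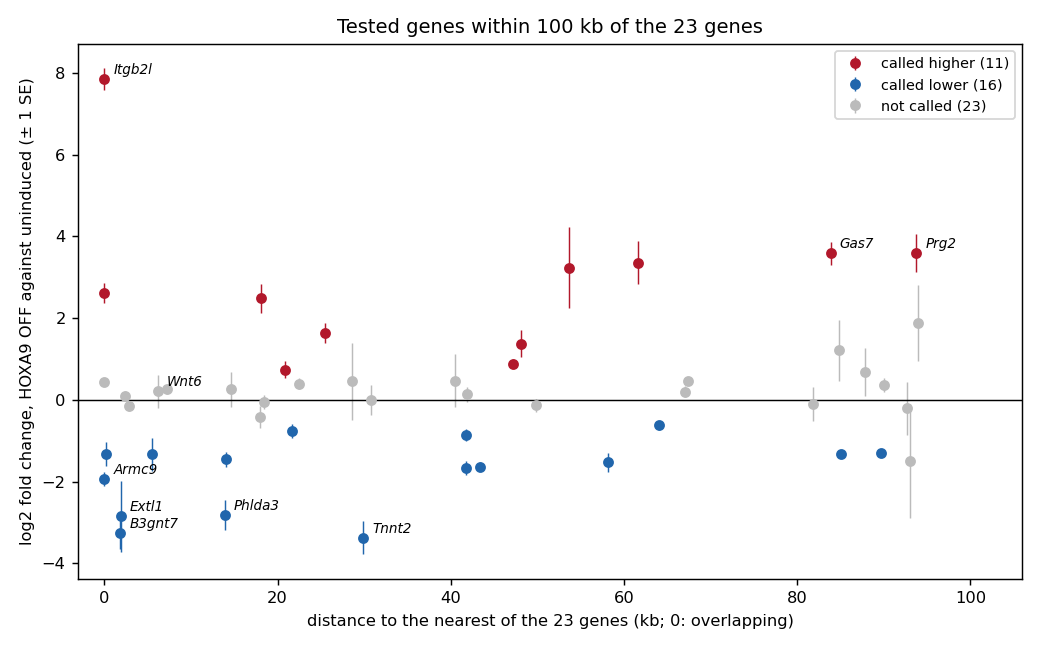
Log2 fold change in HOXA9 OFF against uninduced cells, with 1 SE to each side, of the 50 tested genes within 100 kb of the 23 genes, by distance in kb. Of these 16 were called lower (blue), 11 higher (red) and 23 not called (grey), and lower and higher calls occur at short and long distances.

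A list of 23 genes tied to HOXA9 in blood progenitors, with cofactors and known targets, gives the wider setting. Of these 21 were tested. In HOXA9 OFF against uninduced cells 9 were called lower (Meis1, Myb, Flt3, Sox4, Cd34, Kit, Cdk6, Foxp1 and Trib2). Called higher were 8, among them Hoxa9, Id2, Ccl3 and Ccl4, and the study assigns the Hoxa9 reads to the fused transgene. Of all genes tested, 22.1% were called lower and 25.2% higher. In CAF-1 OFF cells 3 of the 21 were called higher, Pbx3 (log2 1.16), Erg (1.11) and Trib2 (1.89), and Meis1, a HOXA9 cofactor, was called lower (-0.89, edgeR FDR 0.0333), with a median log2 fold change over the list of 0.23 against 0.01 over all genes. These counts were near the 10.5% and 3.5% of all genes called higher and lower. The number called in CAF-1 OFF cells was 0 without uninduced replicate 1, 2 without uninduced replicate 2 or CAF-1 OFF replicate 1, 1 without CAF-1 OFF replicate 2, and 7 or 8 without a HOXA9 OFF library. Flt3, a cytokine receptor of early progenitors, was at 245 and 350 CPM in uninduced, 316 and 216 CPM in CAF-1 OFF and 9.28 and 2.43 CPM in HOXA9 OFF cells. It was not called in CAF-1 OFF cells (log2 -0.16 ± 0.44).

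The genes outside the 23 whose log2 CPM was most alike over the 8 libraries were also lower in HOXA9 OFF cells. They were Pbx4, Usp6nl and Zfp775 for 8430408G22Rik, Epha7, Cd34 and Paqr5 for Slc22a3, and Gbx2, Twist1 and Hbs1l for Rtn4rl2, with Pearson r from 0.997 to 0.999. The 8 libraries share 4 conditions, so each r mainly sets HOXA9 OFF libraries against the rest and is given as a description. Cd34, a surface marker of progenitors, had 1872 and 1711 CPM in uninduced, 2165 and 1615 CPM in CAF-1 OFF and 250.9 and 242 CPM in HOXA9 OFF cells. Twist1, a transcription factor, was at 33.2 and 39.0 CPM in uninduced, 47.9 and 45.1 CPM in CAF-1 OFF and 3.09 and 4.31 CPM in HOXA9 OFF cells. In both the HOXA9 OFF libraries were far below all others but well above 3 reads, whereas the 23 genes were near the floor by choice.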

How the data were processed

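Bulk RNA sequencing of 8 libraries was analysed, 2 each of uninduced, IPTG control, CAF-1 OFF and HOXA9 OFF cells. The authors aligned reads to mm9 with STAR and counted them with HTSeq, and the deposited values are raw counts per gene symbol, with no normalization. The annotation version and strand setting are not given in the sources used here. The 5 HTSeq summary lines were kept apart.

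Groups and replicate numbers came from the labels. Genes were chosen by the count limits above (40 and 8 counts). The members, roles, marker lists, motifs and tests were chosen with earlier results of these data known. Counts were tested with edgeR 4.0.16 (filterByExpr, TMM, one quasi-likelihood fit of all 8 libraries, no covariate, Benjamini-Hochberg over 13080 genes), with the study's limits of FDR 0.05 and 1.5-fold, and the SE was derived from the F statistic. CPM used TMM-scaled library sizes, and RPKM the exon length in GENCODE vM1 (NCBIM37, which is mm9). DESeq2 1.42.0 was an alternative. The code was tested on simulated counts. Depth was 14044284 to 22423837 counts per library, and the precision rests on a spread shared between genes (biological coefficient of variation 18.9%).

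Coordinates of genes are in mm9 and count from 1, and promoters are RefSeq windows in GRCm38.p6. Shared sequence was judged from 50-base windows of the longest protein-coding transcript. Per-library values were given for the 10 genes with the highest uninduced RPKM and the genes called in CAF-1 OFF cells, and other genes were named by role or as examples. Gcnt4, called against IPTG control cells only, and Scrn1, Prrg4, Galnt14, Slc30a2, Wnt10a and Myh13 were given values after these had been seen, as were the genes named as examples. Figures were drawn with matplotlib 3.10.9. One gene of the HOXA9 list is not reported here by name.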

Additional observations from a re-analysis of the deposited data

How the results depend on the processing

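All named differences of the 23 genes come from groups of 2 libraries, so a single library can make or end a call. Leaving out each library in turn gave 0 to 7 genes called in CAF-1 OFF against uninduced cells (0 to 5 higher, 0 to 2 lower), 0 to 6 against IPTG control cells (0 to 4 higher, 0 to 2 lower), 0 in IPTG control against uninduced cells, and 14 to 16 neighbours called lower in HOXA9 OFF cells; without either CAF-1 OFF library 22 to 23 genes were kept. For the HOXA9 list, leaving out each of the 8 libraries gave 0 to 8 called in CAF-1 OFF and 15 to 17 in HOXA9 OFF cells. DESeq2 called 8 genes against uninduced cells. One gene more, 2 in all, was called lower in both comparisons by DESeq2, by the edgeR exact test, with no filter on low counts, and in fits of the compared groups only, where the HOXA9 list had 7. Scaling by library size alone, or a filter at a mean of 50 counts, left 0 called lower against IPTG control cells. FDR 0.01 with 2-fold left 1 called gene in each comparison, higher, 0 lower, and 1 of the HOXA9 list. Stricter limits of 80 and 4 counts left 7 genes, all kept, with 2 called in each comparison (1 higher) and 3 neighbours called lower; looser limits of 20 and 8 counts gave 60 genes, of which 40 had at least 40 counts in both CAF-1 OFF libraries (a limit that these genes need not have met in the controls), 10 called in each comparison (9 higher) and 54 such neighbours. There were 26 such neighbours without dropping genes by name and 32 within 200 kb, which is 30.8% of those tested. The alternatives for the HOXA9 list were chosen after seeing the data. No gene reversed a call, and the cause of these changes was not tested beyond fewer samples or genes.

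With the replicate number as a block, 8 genes were called in each CAF-1 OFF comparison (7 higher), Gcnt4, Prrg4 and Scrn1 being added against uninduced cells. Deviations of same-numbered libraries from their group means correlated over genes at 0.48 between uninduced and IPTG control, 0.30 between uninduced and HOXA9 OFF and 0.32 between IPTG control and HOXA9 OFF cells, but at -0.04, -0.02 and 0.08 between CAF-1 OFF and uninduced, IPTG control and HOXA9 OFF cells. Replicate numbers thus went together in 3 of the 4 groups and not in CAF-1 OFF cells, which both CAF-1 OFF comparisons use, so the replicate block was kept as an alternative.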
